A study of Mus musculus with 18 samples.

Results

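Cerebellum lacking the long noncoding RNA Cyrano was compared with cerebellum lacking Cyrano and also carrying a deletion of 18 nt in Cdr1as, a circular RNA, at its site for miR-671. The comparison used 6 of the 18 small-RNA libraries of the series, the 3 labelled CyrKO and the 3 double mutants labelled CyrKOCdr1as671, chosen by their genotype and tissue labels. It asks what the Cdr1as site deletion does to miRNA levels where Cyrano is absent. All mice were males of 1 month on the C57BL/6J strain, and each group had 3 biological replicates. Both groups lack Cyrano, so neither is a wild-type control. The 3 wild-type (WT) and 3 Cdr1as671 libraries, the latter with the same deletion of 18 nt but with Cyrano, entered the same model and served for the comparison of the deletion with and without Cyrano. Whether a library came from 1 animal or from pooled tissue is not given in the sources used here. Small-RNA libraries do not read Cyrano or Cdr1as, which left the mutated RNAs themselves unchecked.

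A miRNA hairpin is cut into a duplex, of which one strand (the guide) is kept by an Argonaute protein and pairs with targets mainly through its seed, while the other (the passenger strand) is mostly discarded. Cyrano holds a site with unusually extensive pairing to miR-7, and pairing of this kind leads to destruction of the miRNA. Cdr1as, a circular RNA abundant in neurons, carries many sites for miR-7 and a nearly fully paired site for miR-671, at which it can be sliced.

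The strands below carry the comparison, and the 2 guides of miR-7 are set beside their passenger strands and the strands of miR-671. Capitals mark the seed, bases 2 to 8 from the 5′ end, as RefSeq lists the mature miRNAs for GRCm38.p6.
miR-7a-5p: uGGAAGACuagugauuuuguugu
miR-7b-5p: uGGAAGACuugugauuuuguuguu
miR-7a-1-3p: cAACAAAUcacagucugccaua
miR-7a-2-3p: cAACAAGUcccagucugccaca
miR-7b-3p: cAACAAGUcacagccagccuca
miR-671-5p: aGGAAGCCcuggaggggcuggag
miR-671-3p: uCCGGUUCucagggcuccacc
The guides miR-7a-5p and miR-7b-5p share their seed. Counted from the 5′ end of miR-7a-5p they differ by A10U, and miR-7b-5p has 24 nt against 23 nt. miR-7a-5p is made from 2 hairpins, and its reads cannot be assigned to one of them. On GRCm38.p6 it lies at chr7:78888295-78888317 on the plus strand (Mir7-2, with no overlapping gene) and at chr13:58392841-58392863 on the minus strand (Mir7-1, in an intron of Hnrnpk). miR-7b-5p lies at chr17:56243017-56243040 on the plus strand. The passenger strands do tell the hairpins apart, since miR-7a-1-3p differs from miR-7a-2-3p by A7G, A10C and U21C, the first inside the seed. miR-671-5p lies at chr5:24592132-24592154 on the plus strand, in an exon of Chpf2 and opposite an exon of Smarcd3.

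Of 1841 mature miRNAs in the count tables, 688 had enough reads to be tested and 650 more had at least 1 read in the 6 libraries. The double-mutant libraries held 8817113 to 10541539 miRNA reads and the CyrKO libraries 10186139 to 15305829. Levels are given as CPM, the reads of a miRNA scaled to the total of miRNA reads in its library, and changes as log2 double mutant over CyrKO from edgeR's quasi-likelihood fit with TMM scaling. Replicates of these groups correlated across miRNAs at r = 0.993 to 0.997 and differed far beyond counting error, with a chi-square per degree of freedom of 62.0 to 186. Neuronal miRNAs summed to 334810 to 361368 CPM in the double mutants and 339583 to 369960 CPM in CyrKO, ranges that overlap.

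The deletion was followed by a further rise of both miR-7 guides, which already stood high without Cyrano. In the 3 CyrKO libraries miR-7a-5p stood at 19644, 20987 and 19447 CPM, and in the 3 double mutants at 33323, 36859 and 41716 CPM. Every double mutant lay above every CyrKO library, and the means rose 1.86-fold, from 20026 to 37299 CPM (SD 838 and 4214, n = 3 each). The log2 change of miR-7a-5p was 0.95 (SE 0.12, 95% interval 0.69 to 1.20, edgeR adjusted p = 0.000389). miR-7b-5p went from 7473, 8473 and 8460 CPM to 13382, 14598 and 16255 CPM, again without overlap, and its mean rose 1.81-fold. Its log2 change was 0.91 (SE 0.12, 95% interval 0.65 to 1.16, edgeR adjusted p = 0.000389). Both guides kept the call in each alternative run for them, with log2 changes of 0.89 to 1.08 for miR-7a-5p and 0.86 to 1.03 for miR-7b-5p. Because the guides differ so little and the way reads were assigned is not given in the sources used here, they were also summed into 1 feature, which rose by 0.96 (SE 0.13, edgeR adjusted p = 0.00116).

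Both guides rose by similar factors. On the log2 scale, miR-7a-5p over miR-7b-5p was 1.30 ± 0.10 in CyrKO and 1.34 ± 0.02 in the double mutant (SD, n = 3 each). That difference of 0.04 was within the spread between replicates (two-sided exact permutation p = 0.7), and miR-7a-5p made up 71.1% and 71.6% of guide reads. Together the guides took 2.71%, 2.95% and 2.79% of all miRNA reads in CyrKO and 4.67%, 5.15% and 5.80% in the double mutant. The mean share went from 2.82% ± 0.12 to 5.20% ± 0.57, a gain of 2.39 percentage points without overlap (two-sided exact permutation p = 0.1, the smallest that 3 against 3 allows). By rank among miRNAs, miR-7a-5p moved from place 12 or 13 in CyrKO to place 4 in each double mutant. miR-7b-5p moved from places 23 to 26 to places 15 or 16. Summed over both guides, the gain was 23882 CPM without Cyrano, while the same deletion with Cyrano present (Cdr1as671 against WT) came with 125.6 CPM. These gains start from unlike levels, 27118 to 29460 CPM in CyrKO and 583 to 735 CPM in WT. The fitted fold was 1.93 without Cyrano and 1.16 with it for miR-7a-5p, and 1.87 and 1.15 for miR-7b-5p. A test of the difference between these changes was not passed (edgeR adjusted p = 0.168 for both).

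**Figure D1:**
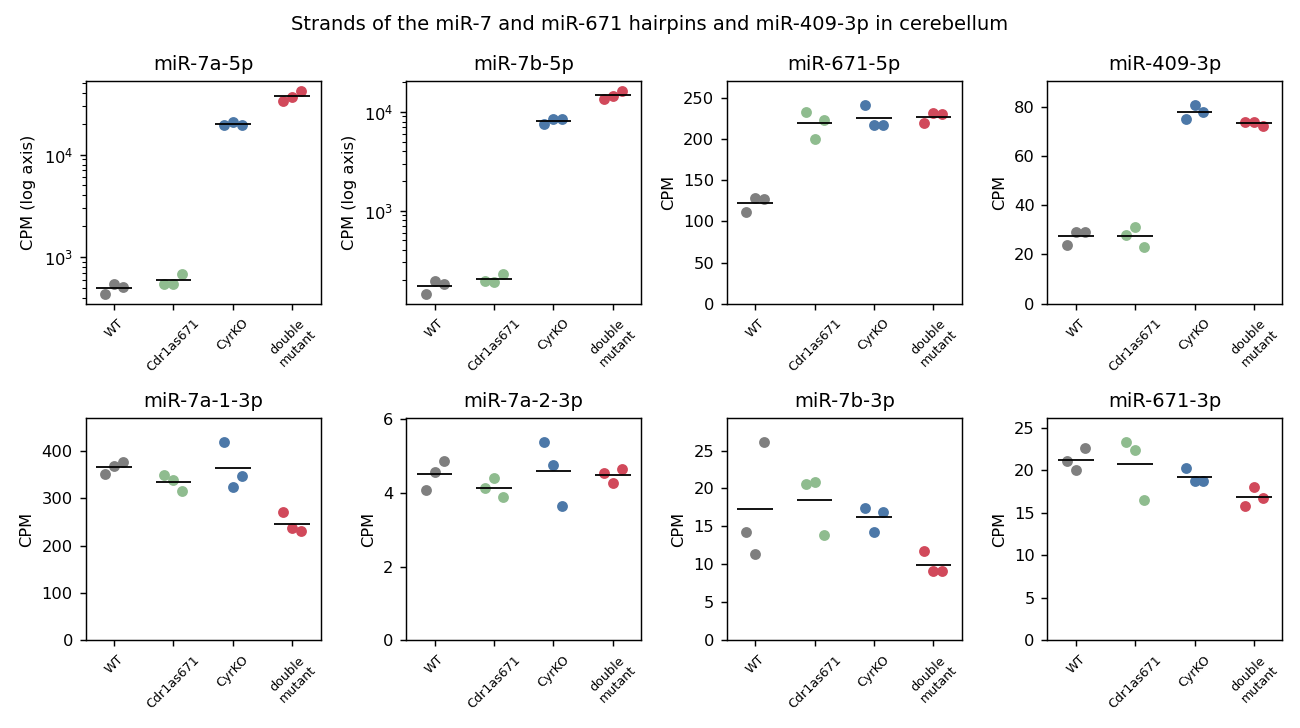
Level in CPM of the miR-7 and miR-671 strands and of miR-409-3p in each cerebellum library, with points for libraries and bars for the means of 3; the vertical axis is logarithmic for miR-7a-5p and miR-7b-5p. Both miR-7 guides are highest in the 3 double mutants, where miR-7a-5p reads 33323 to 41716 CPM, while the means of miR-7a-1-3p and miR-7b-3p are lowest there.

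The passenger strands did not rise with the guides. miR-7a-1-3p, the strand opposite the guide in the Mir7-1 hairpin, stood at 420, 324 and 347 CPM in CyrKO and at 271, 237 and 230 CPM in the double mutant. All 3 double mutants lay below all CyrKO libraries. The log2 change of miR-7a-1-3p was -0.52 (SE 0.10, edgeR adjusted p = 0.0104), a mean 1.48-fold lower. That call rests on single libraries, since the adjusted p of miR-7a-1-3p was 0.0501 without CyrKO library 1, 0.0854 without double-mutant library 2 and 0.0809 without double-mutant library 3. miR-7b-3p, the passenger strand of Mir7b, read 17.4, 14.3 and 16.9 CPM in CyrKO and 11.8, 9.11 and 9.07 CPM in the double mutant. Those groups did not overlap, but the log2 change of -0.64 (SE 0.28, edgeR adjusted p = 0.217) did not pass the test. miR-7a-2-3p was rare, at 5.40, 4.77 and 3.66 CPM against 4.55, 4.27 and 4.65 CPM, and its groups overlapped (log2 change 0.01, 95% interval -0.37 to 0.39).

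Guide and passenger strands of a hairpin start from the same duplex, and their ratio within a library does not depend on the scaling between libraries. miR-7a-5p outnumbered miR-7a-1-3p by 46.8 to 64.8 times in CyrKO and by 123 to 181 times in the double mutant. The log2 ratio went from 5.79 ± 0.24 to 7.24 ± 0.28 (SD, n = 3 each), a gain of 1.45. For miR-7b-5p over miR-7b-3p the log2 ratio gained 1.56, from 8.98 ± 0.23 to 10.53 ± 0.34. For miR-7a-5p over miR-7a-2-3p it gained 0.91. None of these ratios overlapped between the groups, each with a two-sided exact permutation p of 0.1, the smallest that 3 against 3 allows, and 0.125 after Benjamini-Hochberg adjustment over the 5 ratios compared. In the other hairpins with both arms tested, the ratio of the 5p to the 3p arm moved less in most cases. Only hairpins listed in RefSeq with reads of both arms in each of the 12 libraries were compared. Among 107 hairpins with both arms at a mean of at least 10 CPM in each group, the median change of that ratio was 0.09 and the middle 80% lay between -0.37 and 0.52. Mir7-1 ranked in place 1 of the 107 by size of change and was the only one of them to move by more than 1, followed by Mir409 (-0.81) and Mirlet7b (0.81). The groups did not overlap for 45.8% of the 107, so a ratio that separates the groups was common. Mir7b and Mir7-2, whose passenger strands average under 10 CPM in a group, are not among the 107. Over all 191 hairpins compared, arms under 10 CPM included, 6 moved by more than 1. Mir7-1 was in place 4 of the 191, behind Mir3064 (1.98), Mir374c (1.56) and Mir7b (1.56).

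miR-671-5p, whose site in Cdr1as is the one deleted, did not pass the test without Cyrano. It stood at 241.7, 217.5 and 217.2 CPM in CyrKO and at 220, 232 and 231 CPM in the double mutant, so the groups overlapped. The log2 change was 0.06 (SE 0.10, edgeR adjusted p = 0.748), with a 95% interval of -0.15 to 0.27. Its passenger strand miR-671-3p, at 18.8 to 20.2 CPM in CyrKO and 15.7 to 18.0 CPM in the double mutant, had a log2 change of -0.15 (edgeR adjusted p = 0.519). Set against each other within a library, miR-671-5p over miR-671-3p on the log2 scale went from 3.55 ± 0.03 to 3.76 ± 0.07 (SD, n = 3 each). That difference of 0.21 separated the groups (two-sided exact permutation p = 0.1, and 0.125 after Benjamini-Hochberg adjustment). Such separation held for 45.8% of the 107 hairpins above, among which Mir671 was in place 63 by size of change. Listed because they are raised in CyrKO against WT were also 3 strands of the imprinted Dlk1-Dio3 region. None of them passed the test in the double mutant against CyrKO: the log2 change was -0.15 for miR-411-3p (edgeR adjusted p = 0.377), -0.20 for miR-379-3p (0.243) and -0.04 for miR-409-3p (0.862).

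Over all miRNAs, 16 of 688 (2.33%) passed edgeR's quasi-likelihood test at a Benjamini-Hochberg adjusted p under 0.05, 7 higher (1.02%) and 9 lower (1.31%) in the double mutant. For each of the 16, the 3 double mutants lay wholly to one side of the 3 CyrKO libraries. Such separation was itself common, with 8.43% of miRNAs higher and 21.1% lower in all double mutants, 203 miRNAs or 29.5% together. Most changes were small: the median log2 change of the 688 was -0.01, and the middle 80% lay between -0.45 and 0.33. Separation was judged on CPM by library totals, without TMM scaling, and with library totals that median was -0.06. The count depends on single libraries, being 2 without double-mutant library 3 (both miR-7 guides), 7 without CyrKO library 1, 9 without CyrKO library 3, 9 without double-mutant library 2 and 26 without double-mutant library 1. With library totals in place of TMM the split was 7 higher and 18 lower, and DESeq2 called 17 higher and 18 lower in the 12 libraries.

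**Figure D2:**
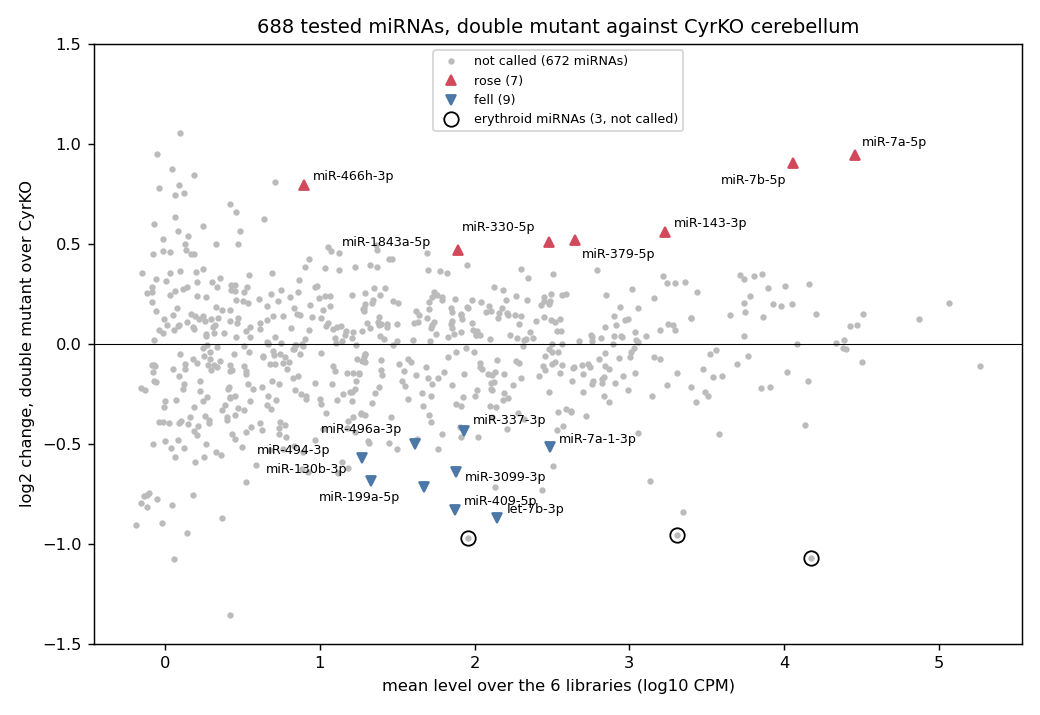
Log2 change of each of the 688 tested miRNAs against its mean level in CyrKO and double-mutant libraries (log10 CPM), with the 16 that passed the test as triangles and the erythroid miRNAs circled. miR-7a-5p and miR-7b-5p stand alone at high level with changes of 0.95 and 0.91, and the circled miRNAs reach -1.07 without passing.

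After the miR-7 guides, 5 other miRNAs rose, each by less. miR-143-3p, known from smooth muscle of vessels, went from 1281, 1470 and 1449 CPM to 1792, 1990 and 2205 CPM (log2 change 0.56, SE 0.10, edgeR adjusted p = 0.00569). miR-379-5p, which opens the imprinted miR-379/410 cluster, went from 340, 399 and 372 CPM to 501, 504 and 535 CPM (0.52, adjusted p = 0.0104). For miR-330-5p the levels were 236, 256 and 271 CPM against 303, 378 and 367 CPM (0.51, adjusted p = 0.00991). The remaining pair were rarer. miR-1843a-5p changed by 0.47 (adjusted p = 0.0104), from 62.8 to 69.6 CPM up to 82.1 to 92.8 CPM, and miR-466h-3p by 0.79 (adjusted p = 0.0288), from 5.10 to 6.97 CPM up to 8.24 to 11.9 CPM. The call of miR-466h-3p was lost in 4 of 18 alternatives. Of 19 alternatives, miR-379-5p lost its call in 3, miR-1843a-5p in 2, and miR-143-3p and miR-330-5p in 1 each.

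Among the 9 that fell, let-7b-3p and miR-409-5p fell most. let-7b-3p, the passenger strand of a let-7 hairpin, read 182, 175 and 194 CPM in CyrKO and 116, 96.6 and 77.9 CPM in the double mutant (log2 change -0.87, SE 0.19, edgeR adjusted p = 0.0282). The call of let-7b-3p was lost in 7 of 19 alternatives, without any 1 of the 3 CyrKO libraries or double-mutant libraries 2 or 3 (adjusted p up to 0.237), without the filter on low counts and without the Cdr1as671 group. miR-409-5p went from 99.6, 88.5 and 102 CPM to 62.9, 52.8 and 41.6 CPM (-0.83, SE 0.14, adjusted p = 0.00569). In both sets double-mutant library 3 was the lowest and library 1 the highest of the double mutants. miR-199a-5p, a miRNA of mesenchymal cells, went from 55.5, 59.0 and 63.6 CPM to 45.2, 32.1 and 27.4 CPM (-0.71, adjusted p = 0.0128). miR-130b-3p changed by -0.68 (adjusted p = 0.0417), from 25.5 to 28.2 CPM down to 13.7 to 20.5 CPM, a call lost in 12 of 19 alternatives (adjusted p up to 0.328), among them RLE scaling (0.0537). miR-3099-3p changed by -0.64 (adjusted p = 0.0104), from 82.6 to 110 CPM down to 54.3 to 61.2 CPM. The last 3, like miR-409-5p, come from the Dlk1-Dio3 region. There, miR-494-3p changed by -0.57 (adjusted p = 0.0358), miR-496a-3p by -0.50 (0.0130) and miR-337-3p by -0.44 (0.0237), at 67.5 to 77.4 CPM for miR-337-3p in the double mutant against 97.1 to 103 CPM. These calls were lost in 6, 4 and 5 of 19 alternatives (edgeR adjusted p up to 0.269, 0.200 and 0.283). The call of miR-199a-5p was lost in 4.

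**Figure D3:**
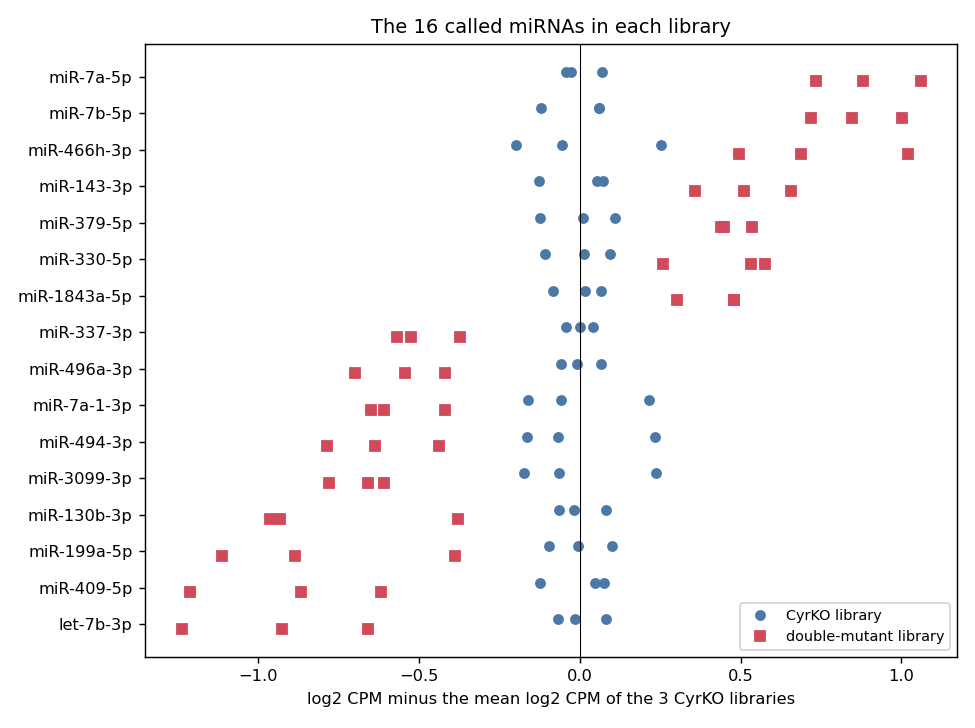
Log2 CPM of the 16 called miRNAs in each of the 6 libraries, relative to the mean log2 CPM of the 3 CyrKO libraries (circles CyrKO, squares double mutant). The groups are apart for all 16, and miR-7a-5p and miR-7b-5p are the 2 with the largest rise.

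Of the other called strands, 6 are printed for the opposite arms, seeds and positions compared next, again with the seed in capitals.
miR-379-5p: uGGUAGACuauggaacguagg
miR-409-5p: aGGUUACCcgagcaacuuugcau
miR-494-3p: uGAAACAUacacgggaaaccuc
let-7b-3p: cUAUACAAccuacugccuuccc
miR-130b-3p: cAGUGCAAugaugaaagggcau
miR-330-5p: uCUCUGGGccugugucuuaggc
The first 3 lie on chromosome 12, miR-379-5p at chr12:109709065-109709085, miR-409-5p at chr12:109743172-109743194 in an intron of the noncoding gene Mirg, and miR-494-3p at chr12:109715367-109715388, all on the plus strand. RefSeq sequences were found for 14 of the 16 called miRNAs and 582 of the 688 tested. Of the 14, 6 lie on chromosome 12 (2 that rose and 4 that fell), where 16.7% of the 582 lie. One of them, miR-1843a-5p, comes from an intron of Dcaf5 outside the imprinted region. Its hairpin also overlaps exons of the noncoding genes Scarna3b and CT030161.1 on the same strand. All 5 matched risen miRNAs begin with U, against 4 of 9 fallen and 41.1% of the 582. By name, 5 of all 7 risen are 5p strands (miR-143-3p and miR-466h-3p are not) and 7 of the 9 fallen are 3p strands, beside 251 5p and 315 3p strands among the 582.

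Outside miR-7, no opposite arm of a called strand passed the test where one was tested. The opposite arms of miR-199a-5p and miR-494-3p were not tested. Those of miR-143-3p and miR-466h-3p, which had no RefSeq sequence, were not looked up. miR-409-3p stayed at 72.2 to 73.9 CPM in the double mutant against 75.1 to 80.8 CPM in CyrKO while miR-409-5p fell. let-7b-5p, the abundant guide of its hairpin, had a log2 change of -0.09 (edgeR adjusted p = 0.553), from 30691 to 36294 CPM in CyrKO to 29895 to 30889 CPM in the double mutant. miR-379-3p, whose partner rose, had a log2 change of -0.20, and miR-330-3p one of 0.15 (adjusted p = 0.559). These opposite arms, and the miRNAs sharing a seed, were named after their values were seen. Seeds were compared only among the 582 tested miRNAs with a RefSeq sequence, which leaves out miR-143-3p and miR-466h-3p. Beside miR-7a-5p and miR-7b-5p, 3 called miRNAs share their seed with another of these. let-7b-3p shares its seed with let-7f-1-3p (log2 change -0.52, adjusted p = 0.0977) and miR-98-3p (-0.35, adjusted p = 0.440), both lower without passing the test. For miR-330-5p the other member is miR-326-3p (0.18, adjusted p = 0.292), and miR-130b-3p shares its seed with miR-130a-3p (-0.21, adjusted p = 0.327) and miR-301a-3p (-0.02, adjusted p = 0.951).

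In the imprinted miR-379/410 cluster on chromosome 12, 4 of 57 tested miRNAs were called, beside 2.33% of all tested. Of these 4, 1 rose (miR-379-5p) and 3 fell (miR-409-5p, miR-496a-3p and miR-494-3p). The 57 had 21 positive and 36 negative changes and a median of -0.10 beside -0.01 for all tested. Of the 17 tested members of the miR-127 and miR-433 group, miR-337-3p fell and the others did not pass the test (median 0.01). Their summed levels were 13093 to 13692 CPM against 13474 to 14522 CPM for the miR-379/410 cluster. For the miR-127 and miR-433 group they were 19658 to 21110 CPM in the double mutant and 16938 to 19901 CPM in CyrKO. Both ranges overlap between the groups.

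The 8 miRNAs with the lowest p after the called ones were led by miR-106b-5p, of the miR-17-92 family, which went from 1375, 1396 and 1228 CPM to 1085, 878 and 877 CPM without passing the test (log2 change -0.45, edgeR adjusted p = 0.0727). miR-15b-5p, linked to cell cycle control, had 1552 to 1877 CPM in CyrKO and 872 to 1265 CPM in the double mutant (-0.69, adjusted p = 0.0751). The myeloid miR-223-3p had a log2 change of -0.52 (adjusted p = 0.0852), miR-3072-3p one of -0.48 and miR-325-3p one of -0.41. On the positive side stood miR-151-3p (0.38), miR-1843b-5p (0.37) and miR-539-5p (0.36). All 8 separated the groups, as did 29.5% of all tested miRNAs. DESeq2 on the 12 libraries called all 8 among its 35, but they were chosen by low p in the same counts.

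Marker miRNAs of blood and supporting tissue were measured beside these changes. Red-cell miRNAs are a measure of the blood left in a tissue, and miR-451a, the most abundant of them, stood at 22574, 24185 and 14324 CPM in CyrKO and at 14103, 4631 and 9412 CPM in the double mutant. The 3 tested erythroid miRNAs were all lower (miR-451a -1.07, miR-144-5p -0.97, miR-144-3p -0.95), none passed (edgeR adjusted p = 0.643 to 0.711), and their sum was 16566 to 27991 CPM in CyrKO against 5405 to 16004 CPM. In bulk tissue, fewer cells of a type and less RNA per cell cannot be told apart. With the erythroid level as a covariate, 20 miRNAs were called, among them 15 of the 16 and both miR-7 guides, while miR-130b-3p no longer passed.

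Of 4 tested mesenchymal miRNAs 1 fell, miR-199a-5p, beside 1.31% of all tested. All 4 were lower (median -0.54), with a sum of 99.7 to 104 CPM in CyrKO and 50.9 to 80.3 CPM in the double mutant. miR-214-3p had a log2 change of -0.59 (edgeR adjusted p = 0.0972) and miR-199b-5p one of -0.50 (0.234). The miR-17-92 family and its relatives, known for their role in proliferating cells, had 14 of 16 tested members lower (median -0.36). Of the 16, 0 were called, beside 2.33% of all tested. Their sum was 7008 to 7695 CPM in CyrKO and 4774 to 6724 CPM in the double mutant, without overlap. Among all tested miRNAs, 21.1% were lower in every double mutant. Named by level, miR-19b-3p had a log2 change of -0.29 (adjusted p = 0.440) and miR-93-5p one of -0.20 (0.416). Of 6 vessel miRNAs, miR-143-3p rose, beside 1.02% of all tested, and 4 were negative (median -0.03). The part that blood or supporting tissue plays in the called changes was not tested beyond the covariate.

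**Figure D4:**
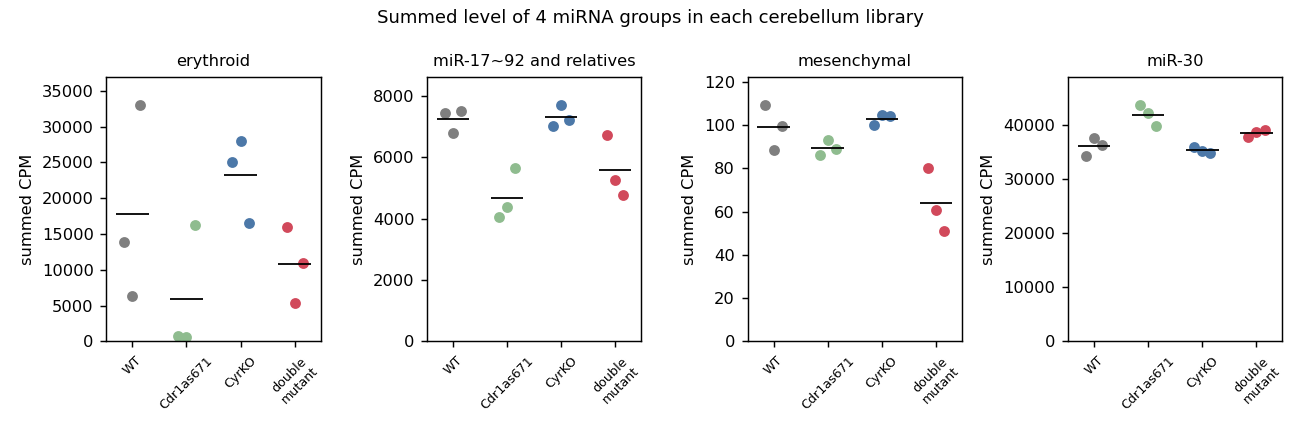
Summed CPM of the erythroid, miR-17-92, mesenchymal and miR-30 miRNAs in each cerebellum library, with points for libraries and bars for the means of 3. The erythroid, miR-17-92 and mesenchymal sums are lower in the 3 double mutants than in the 3 CyrKO libraries, at 50.9 to 80.3 against 99.7 to 104 CPM for the mesenchymal miRNAs, and the erythroid sums vary widely within every group.

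None of the tested neuronal, activity-regulated and oligodendrocyte miRNAs was called, beside 2.33% of all tested. Of 12 neuronal miRNAs, 8 were positive and 4 negative (median 0.11). miR-9-5p had a log2 change of 0.20 (edgeR adjusted p = 0.333) and miR-9-3p, the other arm of the same hairpins, one of -0.41 (0.151). miR-124-3p, the most abundant neuronal miRNA, had 186217, 195679 and 201299 CPM in CyrKO and 185562, 171773 and 164864 CPM in the double mutant (-0.11, adjusted p = 0.490). Among activity-regulated miRNAs, miR-132-3p had a log2 change of -0.24 (adjusted p = 0.189) and miR-212-3p one of -0.34 (0.116), strands of 2 neighbouring hairpins that respond to neuronal activity. The oligodendrocyte miRNAs split, with miR-338-3p at 0.34 (adjusted p = 0.167), miR-219a-2-3p at 0.37 (0.151) and miR-219a-5p at -0.84 (0.312). miR-219a-5p varied from 1922 to 4171 CPM within CyrKO alone.

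Of 8 tested miRNAs reported elsewhere as targets of directed degradation, 0 were called, beside 2.33% of all tested. Among them 4 were positive and 4 negative (median -0.05). miR-29b-3p had a log2 change of 0.29 (edgeR adjusted p = 0.215) and miR-221-3p one of -0.26 (0.171). None of the 3 tested miR-30 members passed, and all were higher in every double mutant than in any CyrKO library, as were 8.43% of all tested miRNAs: miR-30e-5p by 0.20, miR-30a-5p by 0.19 and miR-30d-5p by 0.15, with adjusted p of 0.184 to 0.379. In the immune list the microglial and macrophage miR-21a-5p had a log2 change of 0.26 (adjusted p = 0.247), and 5 of 6 tested members were negative. The 5 tested miR-200 miRNAs of epithelia were all negative (median -0.50) at a sum of 10.3 to 11.9 CPM in CyrKO and 3.78 to 8.82 CPM in the double mutant, with 0 called. No member passed in the choroid plexus list (8 tested), the let-7 list (7), the cerebellar miR-216 and miR-217 list (5) or the forebrain miR-344 list (5). The same held for the Hox list (4), the miR-181 list (4), the miR-29 list (3), the miR-183 list (3), the muscle list (2), the endocrine list (1) and the entries that overlap rRNA (1).

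The deletion was then compared with and without Cyrano in the fit of 12 libraries. The effects share no library, since one is the double mutant against CyrKO and the other Cdr1as671 against WT. miR-671-5p was the only miRNA of 688 (0.145%) whose change differed between them by edgeR's interaction test. With Cyrano present it went from 111, 129 and 127 CPM in WT to 233.5, 200.8 and 223.3 CPM in Cdr1as671, a log2 change of 0.81 (SE 0.10, edgeR adjusted p = 0.000309). Without Cyrano the log2 change was 0.06, from a CyrKO level that already stood at 217.2 to 241.7 CPM. The interaction, as a difference of log2 changes, came to -0.75 (SE 0.14, edgeR adjusted p = 0.0430). This call was lost in 10 of the 12 fits that leave out 1 library, with adjusted p up to 0.301, while the difference stayed between -0.82 and -0.63.

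For the miR-7 guides the order was the other way. miR-7a-5p went from 438, 542 and 507 CPM in WT to 545, 543 and 683 CPM in Cdr1as671 (log2 change 0.22, SE 0.12, edgeR adjusted p = 0.293). miR-7b-5p went from 144.8, 193.5 and 181.2 CPM to 195, 191 and 227 CPM (0.21, SE 0.12, adjusted p = 0.325). Their changes were larger without Cyrano by 0.73 (SE 0.17) and 0.70 (SE 0.17), differences that did not pass the interaction test over all miRNAs (edgeR adjusted p = 0.168 for both). These differences did not pass in most alternatives, and without Cdr1as671 libraries 1 and 2 they were 0.45 and 0.49 (adjusted p = 1.00 for both). They did pass in DESeq2 (adjusted p = 0.0288 and 0.0299), in edgeR without the filter on low counts (0.00494 for both) and without Cdr1as671 library 3 (0.00609 and 0.00776). The passenger strand miR-7a-1-3p had a log2 change of -0.16 with Cyrano and -0.52 without it (difference -0.35, adjusted p = 0.863).

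The other called miRNAs had changes of one sign in both backgrounds. Cdr1as671 differed from WT in 42 of 688 miRNAs (6.1%), 13 higher (1.89%) and 29 lower (4.22%). Of the 7 that rose in the double mutant, 3 also rose there (miR-143-3p, miR-1843a-5p and miR-466h-3p), which is 42.9% of the 7 and 23.1% of the 13. Of the 9 that fell, 7 also fell there, which is 77.8% of the 9 and 24.1% of the 29. The exceptions among the fallen were miR-7a-1-3p and miR-199a-5p (-0.25 with Cyrano, edgeR adjusted p = 0.340). All 16 had the same sign in both backgrounds, but the share of all 688 that did so was not counted. let-7b-3p, for example, fell by 0.83 with Cyrano and by 0.87 without it on the log2 scale, and miR-409-5p by 0.79 and by 0.83. The log2 changes of the 688 miRNAs correlated between the backgrounds at r = 0.51 (Spearman 0.50), given as a description across miRNAs, which are not independent replicates. The erythroid sum was 6326 to 32949 CPM in WT and 603 to 16205 CPM in Cdr1as671, of which libraries 1 and 2 were lowest of all 12. Without those 2 libraries, an alternative chosen after seeing the data that takes the third to vary like the other groups, the interaction called miR-671-5p alone.

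**Figure D5:**
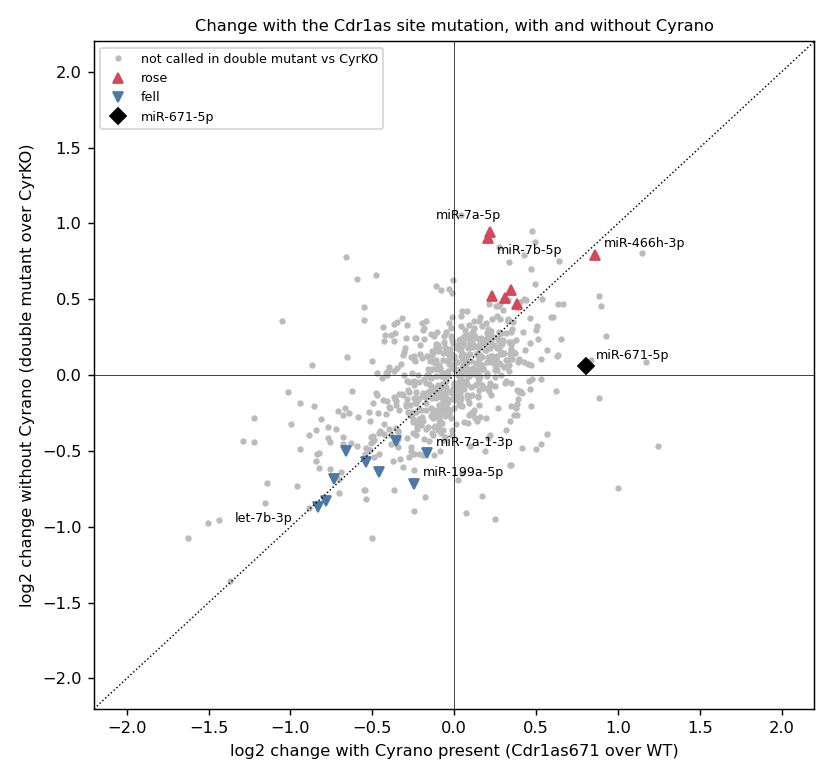
Log2 change of each tested miRNA with the deletion in mice without Cyrano (vertical axis) against the change in mice with Cyrano (horizontal axis), with a dotted line of equal change. miR-7a-5p and miR-7b-5p lie above the line at 0.95 and 0.91 against 0.22 and 0.21, miR-671-5p lies far below it at 0.06 against 0.81, and most called miRNAs lie near it.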

How the data were processed

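The authors deposited whole-number counts of reads per mature miRNA and library, read here as raw counts from 3 cerebellum tables of 1841 miRNAs each. Per the labels' protocols, RNA of 18 to 32 nt was selected from 5 ug of input, with RNA integrity numbers between 8.5 and 9.5. DESeq2 1.10 and cutadapt are named in the submitters' processing notes, while read assignment, annotation and build are not. The tables were joined on the miRNA name, and 30 other library columns (normalised values and hippocampus) were not used.

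edgeR 4.0.16 in R 4.3.3 was run with filterByExpr (minimum count 10, total 15), TMM scaling and the robust quasi-likelihood F-test. The model held 12 cerebellum libraries in 4 groups (8 residual degrees of freedom), with Benjamini-Hochberg adjustment over all 688 miRNAs and a threshold of 0.05. DESeq2 1.42.0 was an alternative. Taken over all miRNAs, replicates differed far beyond counting error, but for rare miRNAs counting error can be as large as the spread between replicates. In the 12 libraries 1 read is 0.0653 to 0.116 CPM.

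Named were all miR-7 and miR-671 strands, all called miRNAs, the 3 other strands raised without Cyrano, the 8 with the next lowest p and up to 4 abundant members per list of 28. Members and lists were chosen with earlier results of these data known.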

Additional observations from a re-analysis of the deposited data

Results flagged for a closer look

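One result stood out because the effect of the same deletion differed between mice with and without Cyrano by a test of the difference itself. The log2 change of miR-671-5p was 0.81 with Cyrano and 0.06 without it, a difference of -0.75 (SE 0.14, edgeR adjusted p = 0.0430). All 3 Cdr1as671 libraries lay above all 3 WT libraries, while double-mutant and CyrKO libraries overlapped. The adjusted p ranged from 0.000446 with DESeq2 to 0.301 without Cdr1as671 library 1. Groups of 3 are too small for the check of single outlying libraries, which was not run.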

How the results depend on the processing

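The count of 16 called miRNAs became 25 with library totals (7 higher, 18 lower), 26 without the filter on low counts, 35 with DESeq2 on 12 libraries and 30 with DESeq2 on 6. It ranged from 2 to 26 when 1 library was left out. Whether the replicate numbers pair the libraries stayed undecided. Deviations of same-numbered CyrKO and double-mutant libraries correlated at -0.04 to 0.25, and 2 of 3 double mutants correlated best with their own number. Same-numbered WT and double-mutant libraries correlated at 0.51, 0.31 and 0.30. Over all pairs of groups, same-numbered libraries correlated at -0.44 to 0.51. The replicate number as a block gave 20, with all 16 among them, and changed the interaction count from 1 to 0 (miR-671-5p, adjusted p = 0.101). The interaction count was 4 without the filter, 4 with DESeq2, and 0 to 19 when 1 library was left out (19 without Cdr1as671 library 3). The gain in the miR-7 share was 5.40 percentage points when the 10 most abundant miRNAs left the denominator. miR-7a-2-3p was -0.038 with library totals and -0.089 to 0.14 when 1 library was left out, and miR-409-3p lay between -0.050 and 0.031. The interaction of miR-671-3p was 0.044 with the erythroid covariate, -0.11 to 0.075 when 1 library was left out and 0.19 without Cdr1as671 libraries 1 and 2, an alternative chosen after seeing the data. miR-301a-3p was 0.0073 with scaling without the 10 most abundant miRNAs, 0.016 with DESeq2 on 6 libraries, 0.11 with the erythroid covariate, 0.0011 with the guides summed and -0.079 to 0.086 when 1 library was left out. With the erythroid covariate miR-144-3p was 0.21 and miR-144-5p 0.10, values that cannot be read as a result, since the covariate is computed from these miRNAs. The change of miR-7a-5p over miR-7b-5p ranged from -0.014 to 0.083 in fits without 1 library. Other causes were not tested. Every other single miRNA rerun for the double mutant against CyrKO kept the direction of its log2 change. The median log2 change of all tested miRNAs, -0.008, was -0.055 with library totals and 0.010 with RLE scaling. Medians and sums of lists, and ratios of hairpins other than those of miR-7 and miR-671, were not rerun. With 3 libraries a group, 139 miRNAs had an unadjusted p under 0.05.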
